A study of Nasonia vitripennis with 9 samples.

Results

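Uninjected male pupae of *Nasonia vitripennis*, a small wasp whose larvae feed on fly pupae, were profiled by RNA sequencing as the untreated baseline of an injection study. The 3 uninjected libraries were picked by their treatment label from 9 libraries in all, and no measured value entered that choice. Of the other 6 libraries, 3 came from males injected as larvae of the second instar with dsGFP, a double-stranded RNA copy of green fluorescent protein sequence (4 µg/µl in water with red dye), and 3 from males injected with water and dye. Every library held a pool of 5 males of the strain AsymCX, which had been cured of the bacterial endosymbiont Wolbachia and was kept on Calliphora hosts at 25 °C with 16 h of light and 8 h of darkness. Larvae were injected about 3 days after egg laying and collected 5 to 6 days later, and for the uninjected males the labels give the stage of white pupae but no days of their own. The collection protocol calls all pools white pupae, whereas the source field calls them larvae. Nothing in the labels says that the pools came from separate cultures, so the spread between them may be partly technical.

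White pupae have finished the larval-to-pupal moult but carry no pigment yet. In insects with complete metamorphosis, pulses of ecdysteroid hormones at this time direct the breakdown of larval tissue, the growth of adult organs and the making of new cuticle. Cuticle is a layered matrix of chitin fibres and structural proteins, and insects switch sets of cuticle protein genes on and off in short windows around each moult. Hexamerins are storage proteins that fat body cells make in the larva and that the pupa consumes while it does not feed. The genes of smell, taste and vision serve adult sense organs that are still forming at this stage.

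Each library gave 38792239, 46080606 and 42519733 read pairs counted on named genes in pools 1, 2 and 3. Triplets of values below follow the same pool order. Between 86.4 and 86.8% of all read pairs were counted on genes, 2.63 to 3.34% did not map, 0.690 to 0.764% mapped to several places and were not counted, and 2.37 to 2.90% overlapped more than 1 gene and were not counted. Ribosomal RNA genes took 6.02 to 13.1 CPM, the unit of all levels here, which is a gene's count divided by the total of named genes and multiplied by 1000000. At this depth 1 CPM corresponds to 38.8 to 46.1 read pairs, and a gene with 0 counts could still be present at up to 3 counts, which is 0.0651 to 0.0773 CPM (counting error only). Levels were not divided by transcript length, so a rank among genes is a rank by share of read pairs and favours long transcripts. Whole animals were used, so fewer cells of a type and less RNA per cell cannot be told apart.

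Of 15418 genes, 10535 (68.3%) had a mean of at least 1 CPM over the 3 pools, 3668 (23.8%) had counts but a mean under 1 CPM, and 1215 (7.88%) had 0 counts in all 3 pools. Another view of the same levels is that 8276 genes reached 10 CPM, 2227 reached 100 CPM and 90 reached 1000 CPM. The median over all genes was 13.8 CPM. Protein-coding genes made up 13433 of the rows and 93.3 to 94.5% of the counts, and 74.8% of them reached 1 CPM. Of 949 long non-coding RNA (lncRNA) genes, 226 (23.8%) reached 1 CPM, and the class took 5.69, 4.71 and 4.40% of the counts. Small and ribosomal RNA genes were nearly unread: 1 of 53 microRNA precursors and 0 of 44 transfer RNA genes reached 1 CPM, 22 and 4 of them had 0 counts, and 203 of 245 ribosomal RNA genes had 0 counts. The libraries were made from poly(A)-selected RNA, which does not capture mature microRNAs, so these values do not measure them.

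The counts were concentrated in few genes. The 3 genes with the most read pairs took 8.15, 6.79 and 7.52% of all counts, and the top 10 took 13.9, 11.7 and 11.5% (12.3% ± 1.33, SD, n = 3). The top 100 took 26.6% ± 2.33 (SD, n = 3). First came LOC100115156, a protein-coding gene named only by its locus number, at 27437, 23706 and 34484 CPM. The second and the third were lncRNA genes, LOC100117122 at 32166, 26042 and 23641 CPM and LOC100117162 at 21859.6, 18170.4 and 17086 CPM. Both lncRNA genes lie next to each other in the RefSeq gene order, and LOC100117122 is also the direct neighbour of LOC100114260, the protein-coding gene of rank 4, at 15725, 14174 and 7336 CPM. These 3 neighbours therefore hold 3 of the 4 highest ranks. All 3 were lowest in pool 3, though the lncRNAs differed less than 1.5-fold between pools (1.36- and 1.28-fold) and LOC100114260 differed 2.14-fold. The next 3 ranks were also held by protein-coding genes known by locus number alone, LOC100679351 (10455 CPM ± 2721, SD, n = 3), LOC100114610 (8022 ± 1438) and LOC100124074 (5118 ± 1707).

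Only 922 of the 15418 genes carry a symbol other than a locus number, and the remaining genes can be given no role here. The families and lists below hold symbol-named genes only. Further members may lie among the locus-number genes, so counts, medians and shares of a family cover its symbol-named part. The symbol-named gene with the most read pairs was Hex70b, a hexamerin, which ranked 9 of all genes at 3179, 3946 and 5031 CPM. Its level was highest in pool 3. EF-1a, the elongation factor that brings aminoacyl-tRNA to the ribosome, followed at 3167, 3371 and 3002 CPM, a 1.12-fold range. CPR1, a cuticle protein with the Rebers-Riddiford chitin-binding domain, had 5091, 3822 and 148 CPM and so owed its rank of 16 to pools 1 and 2. Arp1 was read at 2618, 2855 and 2319.6 CPM, SDR at 2620.4, 2256 and 1545 CPM and CPLCP2, a low-complexity cuticle protein, at 3969, 1680.2 and 17.9 CPM.

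The other symbol-named genes near the top differed less than 2-fold between pools. The serine protease gene SP70 had 1771, 1689 and 1934 CPM. The chaperone gene HSC70, a constitutive member of the heat shock family, had 1636, 1799.9 and 1398 CPM. CYP4G43 belongs to the CYP4G subfamily of cytochrome P450 enzymes, which make cuticular hydrocarbons in Drosophila, and had 2152, 1455 and 1149.7 CPM. It was highest in pool 1 and lowest in pool 3. Rpl7a, a protein of the large ribosomal subunit, had 1227, 1187 and 1189.8 CPM, and Atp5g2, a subunit of the membrane ring of ATP synthase, had 1084, 1101 and 1225 CPM. The dynein light chain gene DLC-A had 777, 839.9 and 1137 CPM, Rpl41 had 813, 881 and 1099 CPM, Crc had 968, 848 and 1551 CPM and Ft had 908, 1013 and 1176 CPM. In these 4 genes pool 3 was the highest pool.

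**Figure D1:**
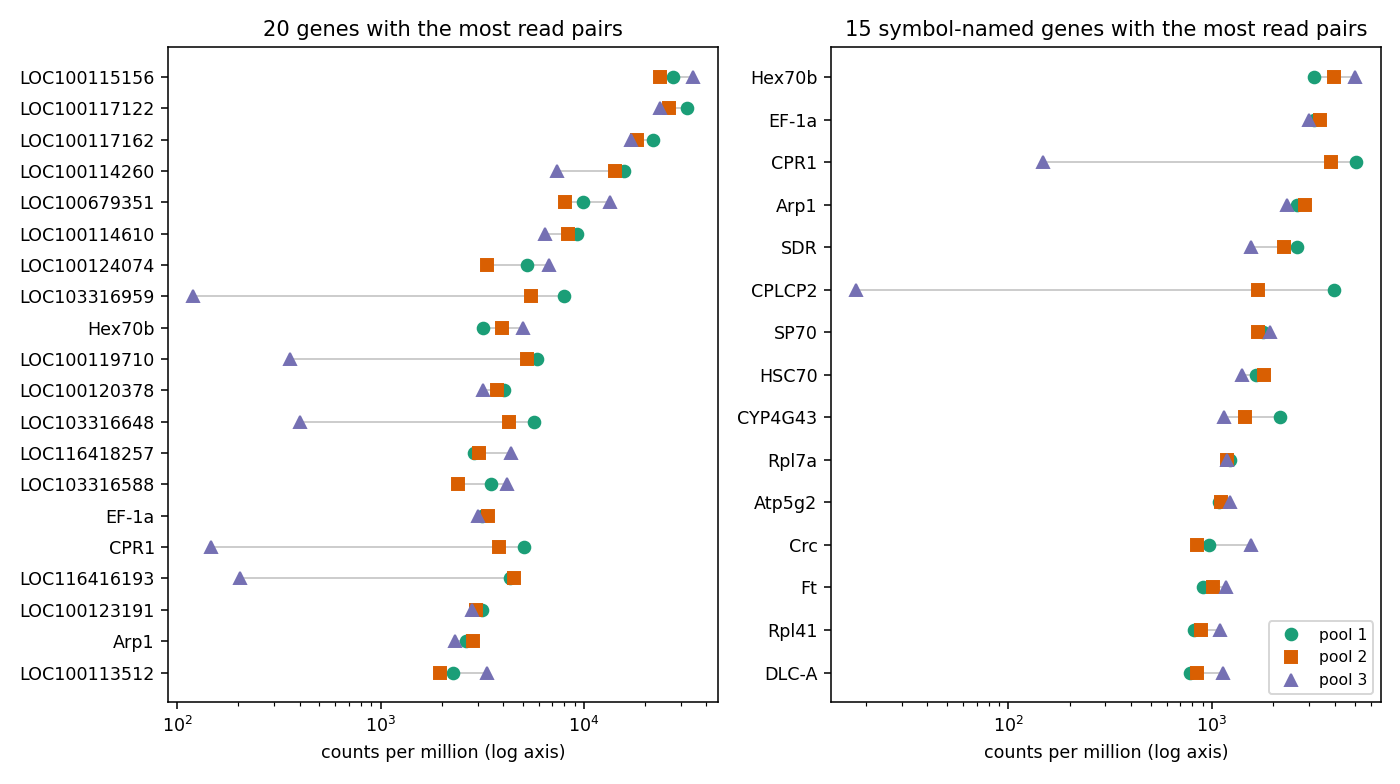
Levels in CPM (log axis) of the 20 genes with the most read pairs (left) and of the 15 highest genes with a symbol (right); each point is 1 pool, with pool 1 as circles, pool 2 as squares and pool 3 as triangles, and the grey line spans the 3 pools. Most genes lie within 2-fold, while CPR1, CPLCP2 and several locus-number genes have pool 3 far to the left.

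The genes of energy metabolism were read throughout. All 31 subunits of respiratory complex I named by symbol reached 1 CPM, as did the 4 of complex II, 8 of complex III, 8 of complex IV and 13 of ATP synthase, against the 68.3% of all genes. Complex I passes electrons from NADH to ubiquinone, and its median member had 98.3 CPM, with a range from 33.9 CPM for Ndufa2 to 238 CPM for the iron-sulphur subunit gene Ndufs1. The medians were 110 CPM for complex II, which oxidises succinate, 105 CPM for complex III, 142 CPM for complex IV, which reduces oxygen, and 171 CPM for ATP synthase. The catalytic ATP synthase genes Atp5a1 (692, 713 and 636 CPM) and Atp5b (600.0, 627 and 553 CPM) were lowest in pool 3. The lowest members were Cox6c at 17.1 CPM ± 3.86 and Atp5e at 15.2 CPM ± 1.802 (SD, n = 3 each). The value of Atp5e depends on the counting. The sum of the strand-specific columns, which keeps pairs that overlap a gene on the other strand, gave 186 CPM. As the libraries do not mark strand, such pairs may belong to the overlapping gene, here and in the summed values below.

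Among the genes of protein synthesis, the 4 cytosolic ribosomal protein genes with a symbol had a median of 831 CPM and the 4 mitochondrial ones 61.5 CPM. The initiation factor gene Eif4g, which encodes a scaffold for cap-dependent translation, had 608, 601 and 802 CPM, and eIF-2beta had 164, 206 and 245 CPM. Among the chaperones, Cctgamma and Cct7 encode subunits of the ring-shaped chaperonin that folds actin and tubulin, at 335, 328 and 530.2 CPM and 236, 224 and 202 CPM. Pool 3 was highest for Cctgamma and lowest for Cct7.

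Arp1 stood apart from the dynein and dynactin genes among which its symbol placed it, with a mean of 2598 CPM ± 268 (SD, n = 3). The symbol is used for the actin-related protein of dynactin, the activator of the dynein motor, but it may stand for another gene here, since only the symbol was used. The 10 other genes of the list, from TctexA at 11.02 CPM to DLC-A at 918 CPM, had far fewer read pairs, and the median of all 11 was 65.9 CPM.

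Genes of dividing cells were present at moderate levels. All 15 cell cycle and chromosome genes reached 1 CPM, against 68.3% of all genes, with a median of 40.4 CPM. None differed 2-fold between pools, against 7.56% of all genes at or above 1 CPM. At that share a list of 15 genes may hold none. Smc1a and Smc3, subunits of the cohesin ring that holds sister chromatids together, had 121, 120.2 and 129.7 CPM and 94.9, 89.2 and 123 CPM. Cdk4, a kinase of the G1 phase, had 109.8, 85.6 and 107 CPM. Of 16 repair and recombination genes, 13 (81.25%) reached 1 CPM, led by the translesion polymerase gene Pol-iota at 39.8, 43.9 and 52.4 CPM. The exonuclease gene WRNexo was at 0.101 CPM ± 0.0299 (SD, n = 3). The DNA methyltransferase gene Dnmt1a had 89.7, 87.5 and 86.2 CPM, a 1.04-fold range, and the methyl-CpG-binding gene Mbd had 57.3, 57.3 and 68.7 CPM.

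Regulators of pattern and sex were measured in all pools. Ptc, the hedgehog receptor, had 139.8, 125 and 125 CPM, the neural regulator pros had 111, 130.4 and 99.6 CPM, Lobe had 106, 107 and 149.9 CPM, and Emc, an inhibitor of proneural factors in Drosophila, had 129.5, 106 and 95.8 CPM. The segmentation gene Eve was the lowest of the 12 patterning genes at 0.8502 CPM ± 0.257 (SD, n = 3). Dsx, the switch at the end of the insect sex-determination cascade, was read at 207, 194 and 169 CPM, Fru, a regulator of male courtship circuits in Drosophila, at 43.7, 78.1 and 47.8 CPM, and Tra, which sets the splicing of Dsx towards the female form, at 21.8, 21.98 and 24.6 CPM. Fru was highest in pool 2. These genes act through sex-specific splice forms, which counts per gene do not separate. Of the germ plasm genes, oskar had 30.5, 31.3 and 46.1 CPM and nanos had 0.748, 0.977 and 1.01 CPM.

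Hormone genes spanned a wide range. Ecr, which encodes the ecdysone receptor, had 311, 276 and 181 CPM and was highest in pool 1 and lowest in pool 3. CYP314A1, the Shade enzyme that converts ecdysone to its active form, had 45.6, 111 and 83.7 CPM and was lowest in pool 1, a 2.43-fold range. All 8 hormone and receptor genes reached 1 CPM, against 68.3% of all genes, with a median of 4.94 CPM. The lower ones included Akhr, the receptor of adipokinetic hormone, at 10.7, 11.1 and 9.78 CPM, and Acpr at 1.24, 2.17 and 1.199 CPM. Pdf, the clock neuropeptide known from Drosophila, had 5.39, 2.82 and 11.3 CPM, so pool 3 held the most.

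Most genes of the chemosensory families stayed under 1 CPM. Odorant receptors are the ligand-gated channels of olfactory neurons, and only 28 of 214 (13.1%) reached 1 CPM, against 68.3% of all genes. Their median was 0.165 CPM, and the summed level of all 214 was 104, 103 and 127 CPM. The highest were Or261 at 7.17, 7.704 and 9.901 CPM, Or195 at 7.94, 5.97 and 6.91 CPM and Or187 at 5.05, 5.53 and 8.04 CPM. Or1, the Nasonia counterpart of the co-receptor Orco, came next at 5.697, 5.77 and 5.903 CPM, within 1.04-fold. At the other end, Or128, Or242, Or27, Or44 and Or53 had 0 counts in every pool. The sum of the strand columns gave 0.341 CPM for Or242 and 0.270 CPM for Or27, which may come from overlapping genes.

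Taste receptors, which sense sugars, bitter compounds and other contact cues, were also mostly unread. Of 46 gustatory receptor genes, 19 had 0 counts in all pools (against 7.88% of all genes), 24 had counts but stayed under 1 CPM and 3 reached it. Gr58 alone had 145, 149 and 149.6 CPM, which is 90.8% of the summed level of the 46 genes. By gene totals it was among the steadiest symbol-named genes at or above 100 CPM (1.03-fold range). Gr2 followed at 8.48, 7.44 and 10.8 CPM and Gr5 at 3.17, 2.97 and 3.57 CPM. Gr3 was at 0.677 CPM ± 0.118 (SD, n = 3) in the unstranded counts and at 10.7 CPM in the summed strand columns, so its place in the order is uncertain. Gr10, Gr20, Gr21 and Gr22 were among those at 0. The 3 odorant-binding protein genes with a symbol stayed under 1 CPM in their mean, with OBP19 at 1.13, 0.651 and 0.8702 CPM.

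Of the 2 eye genes listed, both reached 1 CPM. Lop1, a long-wavelength opsin gene, had 2.68, 3.12 and 1.67 CPM, and white, whose product carries eye pigment precursors, had 11.3, 11.3 and 17.8 CPM, near the median of 13.8 CPM over all genes. Neuronal genes outside the sense organs took more read pairs. Syt1, the calcium sensor of synaptic vesicle release, had 46.97, 64.1 and 54.6 CPM, and the vesicle fusion gene Nsf had 57.02, 65.4 and 49.2 CPM. Slo, a calcium-activated potassium channel, and GluCl, a glutamate-gated chloride channel, had 35.4, 48.4 and 47.4 CPM and 30.9, 43.8 and 32.6 CPM. Among 12 nicotinic acetylcholine receptor subunits 11 (91.7%) reached 1 CPM, against 68.3% of all genes. nAChRa8 had 27.4, 27.6 and 27.7 CPM, nAChRa1 had 22.2, 30.1 and 23.9 CPM and nAChRb1 had 22.3, 28.8 and 22.2 CPM. For the muscle markers, the tropomyosin genes Tm1 and Tm2 had 811, 745 and 778 CPM and 41.8, 39.4 and 76.9 CPM, and the Z-disc gene Zasp66 had 13.3, 26.3 and 20.1 CPM.

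**Figure D2:**
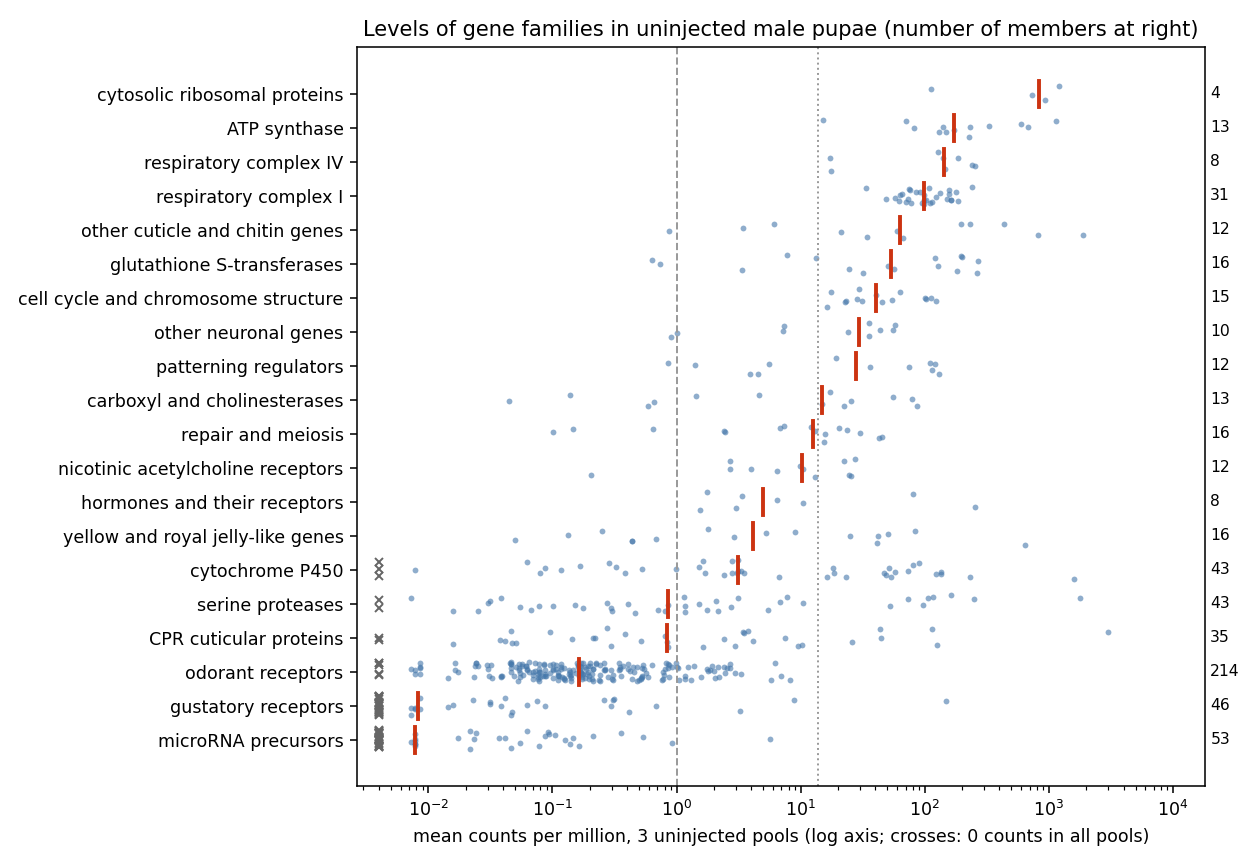
Mean CPM over the 3 uninjected pools (log axis) of every symbol-named member of 20 gene families. Each dot is 1 gene, and crosses at the left are genes with 0 counts in all pools. Red bars are family medians, the dashed line is 1 CPM and the dotted line is the median of all genes (13.8 CPM). The numbers at the right count the members. Odorant receptors, gustatory receptors and microRNA precursors lie mostly under 1 CPM, and respiratory and ribosomal genes lie above the median of all genes.

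Detoxification families were mixed. Of 43 cytochrome P450 genes 29 (67.4%) reached 1 CPM, close to the 68.3% of all genes, and the summed level was 3332, 2666 and 2485 CPM, of which CYP4G43 made up 56.1%. CYP6AQ5 had 222, 263 and 214 CPM, CYP6CK8 had 113, 124 and 167 CPM and CYP6AQ4 had 143, 108 and 151 CPM. CYP9P4 and CYP9P5 had 0 counts, as had CYP6CK13P, which the summed strand columns put at 1.04 CPM. Of 16 glutathione S-transferases, which conjugate reactive compounds to glutathione, 14 (87.5%) reached 1 CPM. They were led by GstS8 at 238, 229 and 335 CPM and the microsomal GST-mic1 at 251, 219.8 and 319 CPM. Of 13 carboxylesterase and cholinesterase genes 9 (69.2%) reached 1 CPM, again close to the share of all genes. CCE-A4 had 64.3, 62.02 and 132 CPM and CCE-E11 had 67.00, 60.6 and 111 CPM, both highest in pool 3.

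The serine protease family was uneven. It had 21 of 43 members (48.8%) at or above 1 CPM, against 68.3% of all genes. Its median was 0.850 CPM, and SP70 held 66.4% of the summed level. SP142 followed at 238, 195 and 309.9 CPM, SP16 at 219, 177 and 91.4 CPM and SP22 at 147, 129 and 75.5 CPM. SP16 and SP22 were lowest in pool 3. SP97 and SP100 had 0 counts in every pool. Of the 8 serine protease homologues, which lack an intact catalytic site, SPH21 was highest at 141, 104 and 130.2 CPM.

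Storage and pigment genes showed the same unevenness. Hex70b made up 99.5% of the summed level of the 3 symbol-named hexamerins. Hex109 had 15.2, 12 and 7.34 CPM and Hex83 had 10.6, 6.79 and 5.198 CPM. Hex70b was highest in pool 3, whereas Hex109 and Hex83 were lowest there. Among 16 genes of the yellow family and its royal jelly-like branch, 10 (62.5%) reached 1 CPM, against 68.3% of all genes. Y-f, whose Drosophila counterpart acts in melanin synthesis, had 528, 508 and 879.6 CPM, Y-b had 90.8, 96.4 and 62.7 CPM, Y-x1c had 75.8, 48.02 and 26.98 CPM and Mrjpl5 had 63.6, 32.99 and 29.6 CPM. The prophenoloxidase gene ppo3, an enzyme precursor of melanisation, was steady at 269.7, 285 and 291 CPM, while ppo1 stayed under 1 CPM at 0.4898, 0.391 and 0.0706 CPM.

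The 3 pools were alike for most genes but differed strongly for some. Pairwise correlations of log2 CPM across 10535 genes were r = 0.970 for pools 1 and 2, 0.963 for pools 1 and 3 and 0.947 for pools 2 and 3 (genes are not independent replicates). The ratio of the highest to the lowest pool had a median of 1.36. It reached 2-fold for 796 genes (7.56%) and 4-fold for 270 (2.56%). For these ratios a pool under 3 counts was set to 3 counts. Leaving out pool 1, pool 2 or pool 3 left 515, 495 and 379 genes at 2-fold and 191, 123 and 161 at 4-fold. With a single group of 3 pools there is no contrast to test, so no p-values are given, and counting error is stated for ratios of named genes as an exact (Clopper-Pearson) 95% interval.

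Pools 2 and 3 stood apart most often. A pool was said to stand apart when it lay at least 1 log2 unit from the nearer of the others. Among the 796 genes, pool 2 was the high pool in 187 (1.78% of the 10535) and pool 3 the low pool in 182 (1.73%). Pool 1 was high in 55 (0.522%), pool 3 high in 38 (0.361%), pool 1 low in 36 (0.342%) and pool 2 low in 5 (0.0475%), and in 293 (2.78%) no pool stood apart. Among the 270 genes of at least 4-fold, 128 had pool 2 high and 100 had pool 3 low. The small counts depend on scaling, with 19 genes of pool 1 low and 18 of pool 3 high under TMM factors.

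**Figure D3:**
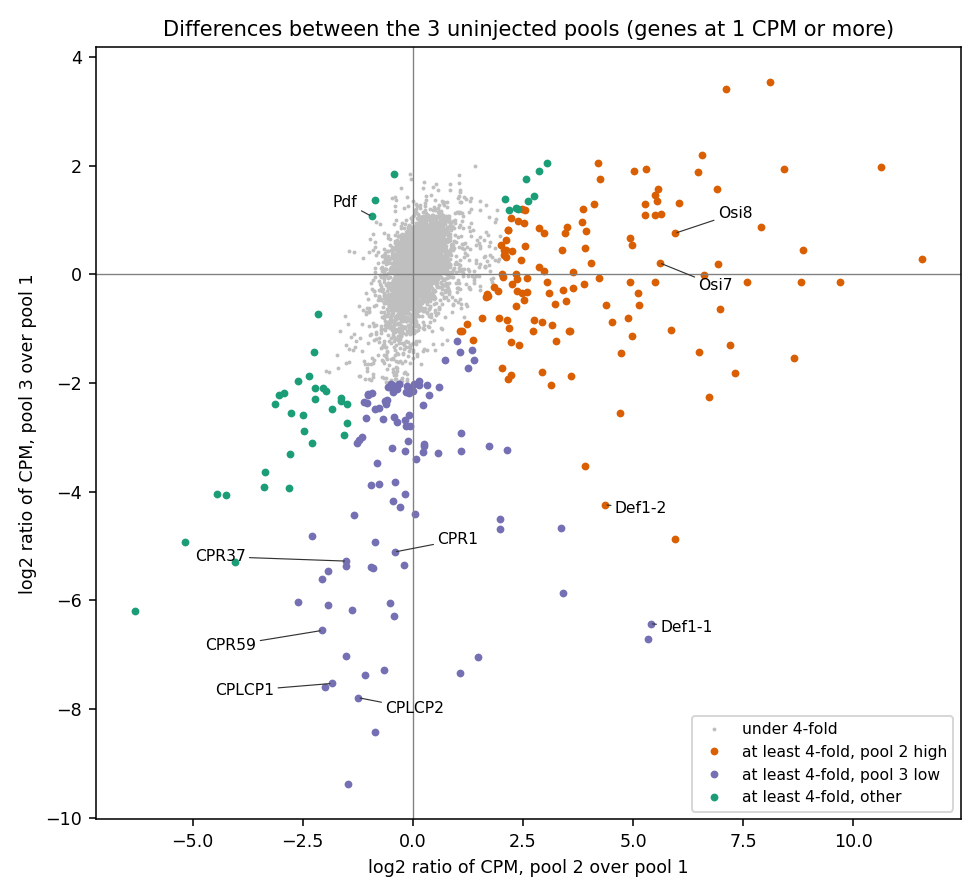
Log2 ratio of CPM of pool 2 over pool 1 (horizontal axis) and of pool 3 over pool 1 (vertical axis) for the 10535 genes with a mean of at least 1 CPM, with a pool under 3 counts set to 3 counts; coloured points differ at least 4-fold between the highest and the lowest pool, in orange with pool 2 high, in purple with pool 3 low and in green otherwise. The labelled cuticle protein genes lie at the bottom (pool 3 low), Osi7 and Osi8 at the right (pool 2 high), and both defensin genes at the lower right.

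Of all gene lists, the cuticle proteins with the Rebers-Riddiford domain (CPR) had the most members with pool 3 low. The family had 16 of 35 members (45.7%) at or above 1 CPM, against 68.3% of all genes. Of these 16, 8 differed at least 2-fold and 7 had pool 3 low, against 7.56% and 1.73% of all genes at or above 1 CPM. The summed level of the family was 5822, 4153 and 311 CPM, and CPR1 alone made up 88.1% of the mean sum. CPR59 had 300.0, 72.1 and 3.199 CPM, a 93.8-fold range (95% interval 79.2 to 112), and CPR37 had 251, 88.1 and 6.47 CPM, a 38.7-fold range (34.4 to 43.8). Both were highest in pool 1, intermediate in pool 2 and lowest in pool 3. CPR1 differed 34.5-fold (33.6 to 35.4) and CPR35 3.28-fold, from 29.8, 37.2 and 11.3 CPM. CPR8, CPR13 and CPR15, named after their values were seen, complete the list at lower levels, with 3.82, 3.32 and 0.0941 CPM for CPR8, 2.397, 2.11 and 0.376 CPM for CPR13 and 9.13, 3.21 and 0 CPM for CPR15. Not every member was lower in pool 3. Of the 16 members at or above 1 CPM, 5 were highest there, among them CPR49 at 36.9, 40.3 and 56.4 CPM. CPR46 and CPR48 had 0 counts in all pools.

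Most other cuticle genes were also lowest in pool 3. Of 12 genes 11 (91.7%) reached 1 CPM, against 68.3% of all genes. Of these 11, 8 were lowest in pool 3, against 27.95% of all genes at or above 1 CPM. Among the 11, 6 differed at least 2-fold and 5 had pool 3 low, against 7.56% and 1.73% of all such genes. The low-complexity cuticle protein genes CPLCP2 and CPLCP1 had the widest ranges, 221-fold (206 to 238) for CPLCP2 and 184-fold (168 to 203) for CPLCP1. CPLCP1 had 1891, 529.5 and 10.3 CPM, with the same order of pools as CPLCP2. Cpap3 genes encode chitin-binding proteins of the cuticle. Cpap3-b had 313, 255 and 122 CPM, Cpap3-a2 had 276, 233 and 73.2 CPM and Cpap3-d1 had 94.3, 84.5 and 21.00 CPM, so pools 1 and 2 were close and pool 3 was lower. Cht5, a chitinase of the moult, did not share this pattern, with 406, 491 and 408 CPM. Its mean was 435 CPM in these counts and 584 CPM in the summed strand columns.

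The symbol-named defensins and 2 of the 3 symbol-named Osiris genes had their highest level in pool 2. Defensins are small antibacterial peptides that immune signalling induces. Def1-1 had 14.2, 597 and 0.165 CPM and Def1-2 had 39.6, 816 and 2.09 CPM. Pool 2 was far above pool 1, and pool 1 far above pool 3, in both. The range was 3629-fold for Def1-1 (1761 to 9026, from 7 counts in pool 3) and 389.9-fold for Def1-2 (317 to 486). Of the other immune genes with a symbol, serpin5, a serine protease inhibitor, had the same order of pools over a smaller range, at 257, 305 and 162 CPM (1.88-fold). The prophenoloxidase gene ppo1 stayed under 1 CPM, at 0.4898, 0.391 and 0.0706 CPM, with pool 3 lowest, and ppo3 differed 1.08-fold. Imd differed 1.35-fold and Gnbp1-2 1.51-fold. Of the 6 immune genes at or above 1 CPM, both defensins and serpin5 were highest in pool 2. The other 3, ppo3, Imd and Gnbp1-2, were highest in pool 3. Osiris genes are an insect-specific family expressed in cuticle-forming epithelia in Drosophila. Osi8 had 1.21, 75.1 and 2.05 CPM and Osi7 had 1.06, 51.4 and 1.22 CPM, so pool 2 alone was high, 61.96-fold (46.5 to 84.5) and 48.6-fold (35.7 to 67.9) over the lowest pool. Osi19 stayed near 0 in all pools, at 0, 0.0434 and 0.04704 CPM.

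Genes known by locus number, which are 94.0% of all genes, also had very wide ranges. LOC100122694 had 39.2, 1592 and 0.376 CPM and its direct neighbour LOC116416940 had 11.7, 728 and 0.3998 CPM, the same order of pools as the defensins. LOC107981201 had 0.0516, 232 and 0.0941 CPM, where the lowest pool rests on 2 counts and the ratio as counted was 4506 (95% interval 1247 to 37215). LOC107981189 was read in pool 2 alone, at 34.6 CPM with 0 counts in the other pools, where a floor of 3 counts is 0.0773 CPM in pool 1 and 0.0706 CPM in pool 3. Of the 12 genes with the widest range at a mean of at least 5 CPM, pool 2 held the highest value in 11. The exception was LOC116416142 at 1631, 586 and 2.45 CPM, with pool 1 highest.

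Several of the genes with the most read pairs also belonged to the low side of pool 3. LOC103316959 had 7948, 5519 and 120.4 CPM, LOC100119710 had 5907, 5250.3 and 357 CPM, LOC103316648 had 5655, 4298 and 401 CPM and LOC116416193 had 4322, 4509 and 204 CPM. In each of these 4 genes pools 1 and 2 lay within 2-fold of each other and pool 3 was at least 14.1-fold under the highest pool. The smaller named differences included Pdf, highest in pool 3 (4.002-fold), Y-e3 at 4.12, 8.72 and 3.01 CPM and NV_30064 at 3.04, 13.7 and 5.39 CPM, both highest in pool 2.

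At the steady end, the symbol-named genes with the smallest ranges at a mean of at least 100 CPM included Gr58, Rpl7a, Lsd2 and Rpn6. Lsd2, a lipid droplet protein gene, had 542, 524 and 546 CPM and the proteasome lid gene Rpn6 had 294, 274 and 279.9 CPM. The ranges of these 4 genes ran from 1.03- to 1.07-fold. In nAChRa8, at a lower level, the range was 1.01-fold. These and the other narrow ranges given here hold for division by gene totals. The TMM factors of pools 1, 2 and 3 were 0.952, 0.974 and 1.08. Such ranges, and the choice of steady genes, therefore depend on the scaling.

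Besides these large differences in few genes, whole groups shifted slightly between pools. Pool 3 was the highest pool for 56.0% of all genes at or above 1 CPM, and the median log2 ratio of pool 3 over pool 1 was 0.24 over all genes, 0.05 after TMM scaling and -0.0048 after median-of-ratios scaling. Group shifts are therefore read against that median. Of the 31 complex I genes 30 were highest in pool 3, with a median log2 ratio of 0.54 over pool 1, and 30 of 31 were above pool 1 under TMM scaling too. Complex III had a median of 0.53 with 8 of 8 genes highest in pool 3, complex IV 0.51 with 8 of 8, ATP synthase 0.53 with 11 of 13 and mitochondrial ribosomal proteins 0.60 with 4 of 4. The shift was not limited to respiratory genes, since the carboxyl and cholinesterases had 0.53 (9 genes), the dynein and dynactin list 0.51 (11 genes) and the translation factors 0.48 (6 genes). The most negative medians were -1.36 for the other cuticle genes and -1.03 for the hexamerins (3 genes). Next were the CPR genes at -0.73 and the serine proteases at -0.31 (21 genes). Smaller negative medians were found for the immune genes (-0.28), yellow and royal jelly-like genes (-0.23), serine protease homologues (-0.21) and patterning genes (-0.11). The hormone (-0.09) and eye (-0.02) lists were also negative. These medians give each gene the same weight. Hex70b, with 99.5% of the summed level of the 3 symbol-named hexamerins, was highest in pool 3, and only Hex109 and Hex83 were lower there. The summed level of the serine proteases was 2758 CPM in pool 1 and 2791 CPM in pool 3.

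Most neuronal genes were highest in pool 2. Among the 9 neuronal genes at or above 1 CPM outside the acetylcholine receptors, 8 were highest in pool 2, with a median log2 ratio of 0.51 over pool 1 against 0.04 for all genes, and 8 of 11 nicotinic receptor subunits were highest there, with a median of 0.37. Across all genes 25.8% were highest in pool 2. None of these neuronal and receptor genes differed 2-fold, against 7.56% of all genes at or above 1 CPM. At that share small lists may hold none.

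**Figure D4:**
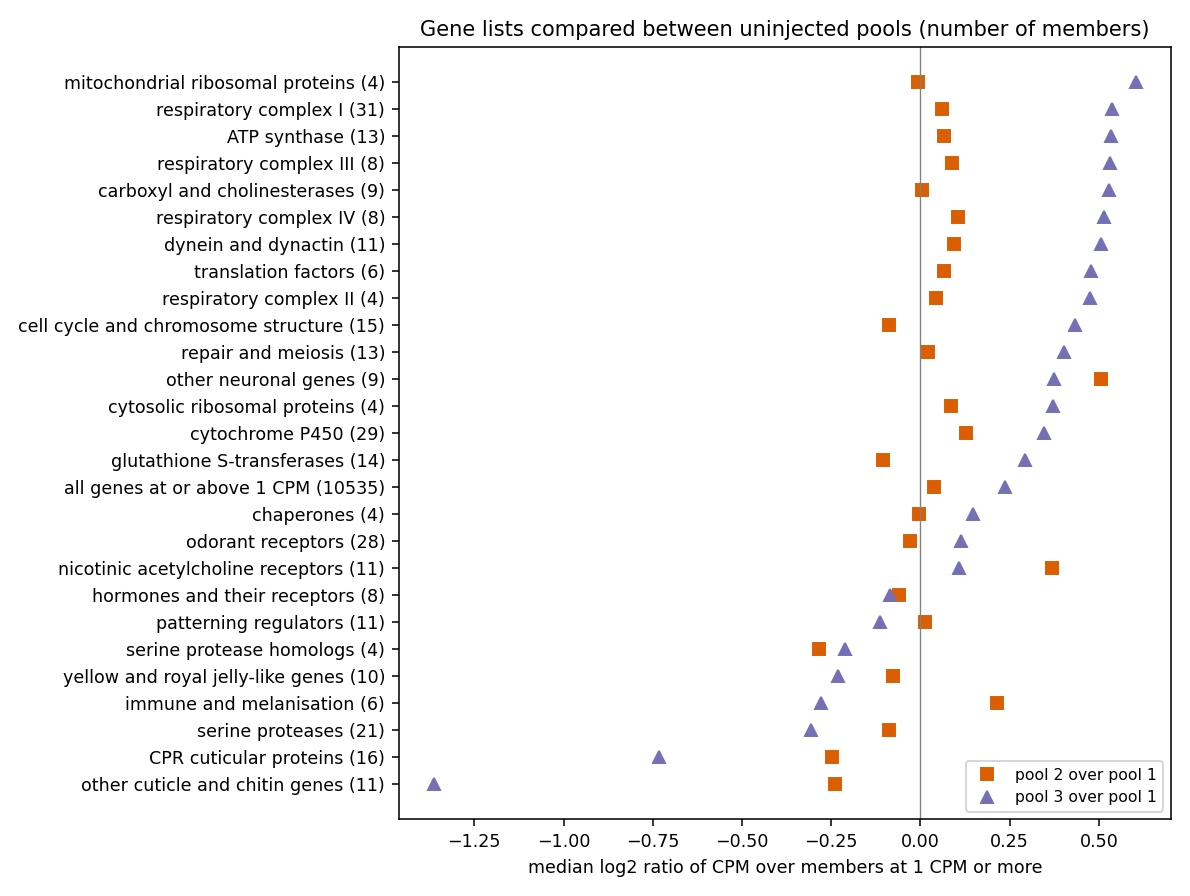
Median log2 ratio of CPM of pool 2 over pool 1 (squares) and of pool 3 over pool 1 (triangles) for gene lists with at least 4 members at or above 1 CPM (number in brackets), with all 10535 genes as 1 line. Respiratory and mitochondrial ribosomal genes lie right of all genes for pool 3, cuticle genes lie far left, and the neuronal lists lie right for pool 2.

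The injected pools were used only to see whether the same genes also varied within another group of 3. Of the 270 genes that differed at least 4-fold between uninjected pools, 92 (34.1%) differed at least 4-fold between the dsGFP pools and 79 (29.3%) between the water pools, against 1.29% and 0.921% of all 10535 genes. At 2-fold these were 181 (67.0%) and 163 (60.4%), against 6.00% and 3.51%. Of the 270, 53 reached 4-fold in both injected groups, and 62 (23.0%) reached 2-fold in neither. Among the 10535 genes, the 92 were 67.6% of those that differed 4-fold between dsGFP pools. The 79 were 81.4% of those that did so between water pools. Of the 100 genes with pool 3 low, 43 differed 4-fold between dsGFP pools and 56 between water pools. Of the 128 genes with pool 2 high these counts were 30 and 14. These counts, the shares of 67.6% and 81.4%, and the 62 genes in neither depend on the filter, which used the uninjected pools alone. A gene that passed through pool 2 could be near 0 in the injected pools, where the floor of 3 counts keeps ratios low. LOC107981189, for example, had 0 CPM in every water pool. Over the same 10535 genes, edgeR's common biological coefficient of variation was 29.1% between uninjected pools. It was 18.2% between dsGFP pools and 16.8% between water pools. These genes too were chosen by the uninjected pools alone. A gene high in 1 uninjected pool could enter, whereas a gene read only in injected pools could not. The 3 values are therefore not on equal terms. The median of the gene values was 0.277, 0.163 and 0.147 in the same order. With 3 pools edgeR draws each gene's value towards that of all genes, so this median is not separate from the common value. Rpl7a, steady by gene totals (1.03-fold range), was given 0.336 between uninjected pools. The differences between groups in these values were not tested.

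The named genes showed both cases. CPLCP2 had 9207, 13087 and 1253 CPM in the dsGFP pools and 7986, 322 and 5956 CPM in the water pools, and CPR1 had 7263, 13448 and 3049.9 CPM and 6220.0, 979 and 3692 CPM. Water pool 2 was the lowest injected pool for both. Def1-1 had 64.05, 64.2 and 10.9 CPM in the dsGFP pools and 34.7, 1.08 and 5.64 CPM in the water pools, so no injected pool reached the 597 CPM of uninjected pool 2. Osi8 had 1.74, 0.325 and 1.695 CPM and 2.19, 2.02 and 1.19 CPM, and Osi7 had 0.698, 0.561 and 1.06 CPM and 0.596, 1.16 and 0.553 CPM. For both Osiris genes uninjected pool 2 alone was high among all 9 pools.

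**Figure D5:**
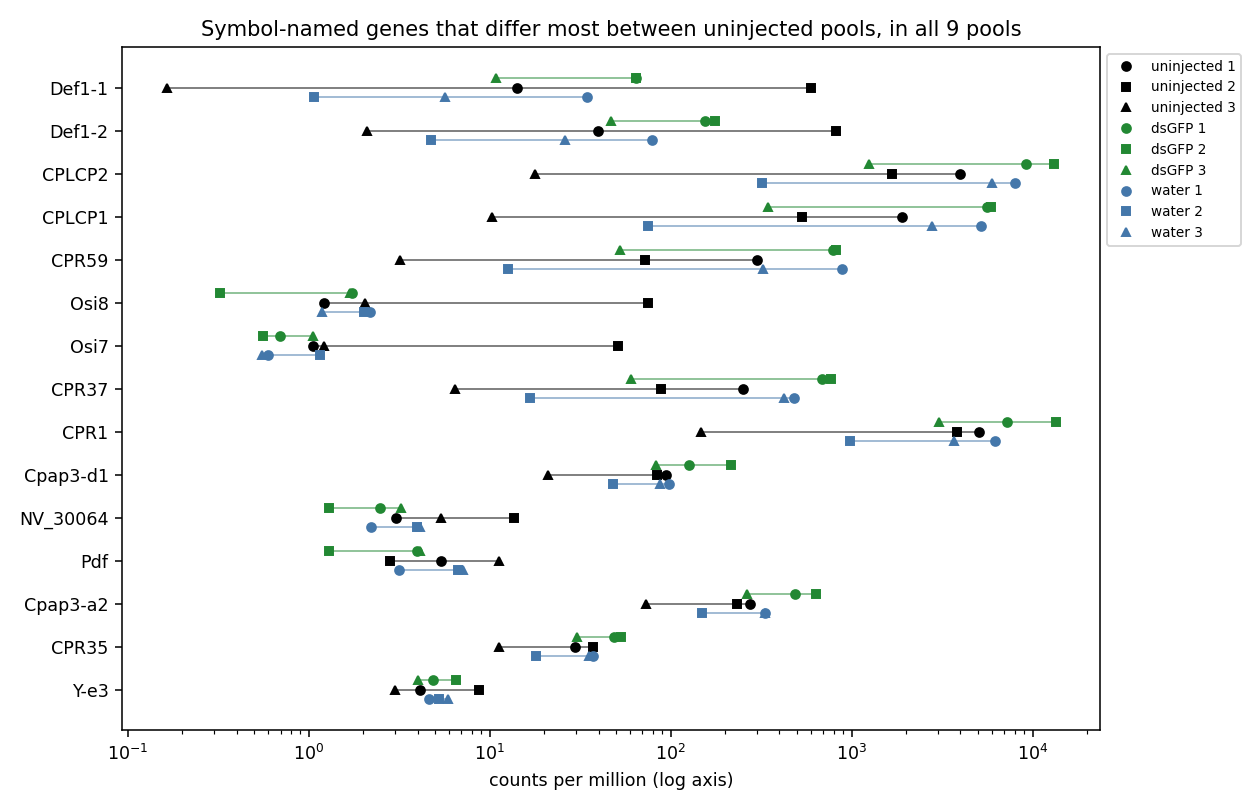
Levels in CPM (log axis) of the 15 symbol-named genes with the widest range between uninjected pools, in all 9 pools; black marks uninjected, green dsGFP and blue water pools, the marker shape gives the pool number and the line spans the 3 pools of a group. Cuticle genes spread within every group, whereas Osi7 and Osi8 are high in uninjected pool 2 alone.

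Some of these genes were direct neighbours. In the gene order of the RefSeq table, 264 of the 270 genes of at least 4-fold could be placed, and 74 of them (28.03%) had a direct neighbour that also differed at least 4-fold, against 275 of 10006 other genes (2.75%). There were 42 such adjacent pairs, of which 32 shared the pool that stood apart. The longest runs had 4 genes, 1 of them LOC116416142, LOC100678851, LOC103316648 and LOC116416193, all with pool 3 low. Osi7 and Osi8 are neighbours, as are CPR1 and CPR59, and Cpap3-d1, Cpap3-a2, Cpap3-a1 and Cpap3-b follow each other. A single gene lies between Def1-1 and Def1-2. The counts carry no strand and pairs that map to several places were dropped, so values of overlapping genes and of near-identical neighbours in such clusters are uncertain.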

How the data were processed

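RNA of each pool was enriched for poly(A) with oligo(dT), and libraries were sequenced as paired reads of 150 bp with no step that marks strand, per the labels' protocols. The authors deposited raw counts of read pairs per gene for each library, made with STAR 2.6.1b per the submitters' processing notes. No coordinates are printed, the genome build being not given in the sources used here. A RefSeq table of assembly Nvit_psr_1.1 served for gene types and gene order alone (14940 of 15418 genes matched).

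Each file has 4 summary lines and 15430 rows. The unstranded count column was used, and 12 rows without a gene name were left out (0.0553 to 0.0608% of counts). CPM is the deposited count divided by the gene total and multiplied by 1000000. Between-pool ratios used genes with a mean of at least 1 CPM, with pools under 3 counts set to 3. Scaling factors and dispersions came from edgeR 4.0.16 in R 4.3.3, and other values from Python 3.11.15. No test across groups was made. The ratio counts and the dispersion estimate were tested on simulated data. Levels per coding length could not be computed, since protein and transcript lengths were not used here.

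The 37 gene lists were built from symbols, and members and lists were chosen with earlier results of these data known. Named were the 20 genes and the 15 symbol-named genes with the highest mean, the 4 highest, the lowest and the silent members of each list, the 12 genes and the 15 symbol-named genes with the widest range at a mean of at least 5 CPM, and the 5 steadiest symbol-named genes at or above 100 CPM. Of these the text gives a selection, and some are not reported here.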

Additional observations from a re-analysis of the deposited data

Results flagged for a closer look

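Outside the measured genes, the 12 rows that are headed by part of a product's description rather than by a gene held read pairs in every uninjected library, at a mean of 0.0578% of the counts. This exceeds the limit that a count of 0 allows. The rows could not be tied to a gene and entered no result.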

How the results depend on the processing

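No paired analysis was possible because a single group of pools was described and no groups were compared. With TMM factors 19 genes had pool 1 low and 18 had pool 3 high, and with median-of-ratios factors these were 15 and 14, against 36 and 38 by gene totals; with TMM 704 of the 796 genes at 2-fold and 268 of the 270 at 4-fold remained. Without a filter on low levels 1901 genes differed 2-fold and 423 differed 4-fold, and the split was 132 (pool 1 high), 135 (pool 1 low), 287 (pool 2 high), 90 (pool 2 low), 247 (pool 3 high) and 759 (no pool apart). With a filter of 5 CPM 507 genes differed 2-fold, with 35 (pool 1 high), 18 (pool 1 low), 3 (pool 2 low), 19 (pool 3 high) and 169 (no pool apart). With a filter of 0.5 CPM, pool 2 was low in 16 genes and pool 3 high in 59. With 0.5 CPM added to each pool, pool 1 was low in 16 and pool 2 low in 3. At up to 3 counts in every pool, 2336 genes would count as silent. Leaving out each pool in turn gave 379 to 515 genes at 2-fold and 123 to 191 at 4-fold (379 and 161 without pool 3, 495 and 123 without pool 2, 515 and 191 without pool 1), 10481 to 10549 genes at or above 1 CPM, 1364 to 1421 silent genes and a top-10 share of 11.7 to 12.9%. The drop is built in, since 2 pools have a smaller range than 3, and the split by pool is not defined for 2. The median of the immune list fell from 204 to 21.8 CPM without pool 2. Summed strand columns moved 24 of 223 named means and 7 of 37 list medians by more than the spread between pools. Among the moved genes with unstranded counts, the largest changes by ratio were in Atp5e, Gr3, nAChRa10 and Uqcr10. In CPM, Cht5 rose from 435 to 584 and Cox6b1 from 256 to 334.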

Other observations

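Genes that the RefSeq table places on PSR, a B chromosome known from some Nasonia males, were nearly unread. Of 77 such genes 69 had 0 counts in all 3 pools, and none reached 1 CPM. Together they had 19, 32 and 26 counts in pools 1, 2 and 3. The highest was LOC116417956 with 7, 17 and 16 counts.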
